A study of Mus musculus with 9 samples.

Results

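The transporter encoded by Slc7a5, known as LAT1, and 9 further carriers of amino acids were followed in mRNAs pulled down with GFP-tagged ribosomes from whole brain and from purified brain vessels. The 10 genes (Slc7a5, Slc3a2, Slc7a8, Slc7a10, Slc7a11, Slc7a1, Slc38a2, Slc38a5, Slc6a6 and Slc6a9) were taken by symbol from the 22092 genes found in the count tables, and all 10 were among the 14427 genes with enough counts to be tested. All 9 libraries came from mice of 2 months of the strain Aldh1L1 JD130 (genotype tg:Aldh1L1-L10aGFP), in which the Aldh1l1 promoter, active in astrocytes, drives a GFP-tagged ribosomal protein L10a. In translating ribosome affinity purification (TRAP), the tagged ribosomes are pulled down with an antibody against GFP and the attached mRNAs are sequenced. The 3 whole astrocyte TRAP libraries were each made from 1 brain, from which the choroid plexus had been removed, and the 6 endfeet TRAP libraries from purified brain vessels, each pooled from several mice, on which the perivascular endfeet of astrocytes are retained. No untagged control library and no input RNA was analysed here, so a level is the amount of an mRNA in the immunoprecipitate.

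Amino acids cross membranes on carriers that differ in their substrates and in the ions they move with. LAT1 is a light chain that works only when joined to a heavy chain, 4F2hc (Slc3a2), and it exchanges large neutral amino acids such as leucine, phenylalanine and tryptophan without sodium. It is best known in the brain from the capillary endothelium, where it brings essential amino acids across the blood-brain barrier. LAT2 (Slc7a8), Asc-1 (Slc7a10) and xCT (Slc7a11) are other light chains of the same heavy chain, whereas CAT1 (Slc7a1), SNAT2 (Slc38a2), SNAT5 (Slc38a5), TauT (Slc6a6) and GlyT1 (Slc6a9) work without it.

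When amino acids run short, the transcription factor ATF4 raises the mRNAs of several carriers through amino acid response elements, and Slc7a11 is a textbook case. The 250 bases before its start site, from the RefSeq annotation of GRCm38.p6 (chr3:50443614-50443863, minus strand, 5′ to 3′), are shown because they hold such elements, given in capitals, and because Slc7a11 is among the mRNAs described next.
Slc7a11: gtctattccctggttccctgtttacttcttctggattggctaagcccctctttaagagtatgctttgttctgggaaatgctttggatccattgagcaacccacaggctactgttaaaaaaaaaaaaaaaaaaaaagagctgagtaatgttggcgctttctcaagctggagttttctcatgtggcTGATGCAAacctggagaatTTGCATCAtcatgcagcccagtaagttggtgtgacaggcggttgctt
The letters TGATGCAA began 66 bases before the start site, and the same letters read on the other strand began 47 bases before it. A promoter window, of 250 bases before and 50 after a start, was found for 8 of the 10 genes (11 windows), and of these the Slc7a11 window alone held TGATGCAA on either strand. It was held by 0.895% of the 32851 promoter windows of all mouse genes. The looser pattern TGATGNAA, which covers the same sites, was held by 3.97% of all windows and by no further window of the 10 genes. TGACNNNGC, the core of the antioxidant response element, was held by 4 of the 11 windows (both windows of Slc6a9, and those of Slc7a1 and Slc38a2) and by 12.4% of all windows. A match of letters describes a sequence and no binding was measured.

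Of the 10 transporter mRNAs, 7 were higher in endfeet TRAP than in whole astrocyte TRAP and 0 were lower, at unadjusted p under 0.05 too. They were the mRNAs of LAT1, of its heavy chain 4F2hc, of xCT, CAT1, SNAT2, SNAT5 and TauT, with log2 fold changes between 1.27 (Slc3a2) and 10.17 (Slc38a5). The mRNAs of LAT2, Asc-1 and GlyT1 did not pass the test. Slc38a5, with 0, 0 and 4 counts in the whole astrocyte libraries, had enough counts to be tested only through endfeet TRAP. It could thus only be called higher. Calls are from edgeR's quasi-likelihood test at a Benjamini-Hochberg adjusted p of at most 0.05 over all tested genes, by which 20.7% of genes were higher in endfeet TRAP and 13.9% were lower. DESeq2 called the same 7 (25.6% of genes higher and 16.2% lower), and limma voom with group weights called Slc7a8 besides (27.2% higher and 31.1% lower). For each of these 7 mRNAs every endfeet library lay above every whole astrocyte library, which was so for 18.9% of all genes tested. For Slc38a5 this rests on only 2 counts in endfeet library 6. The median log2 fold change of the 10 mRNAs was 2.82, against 0.0965 over all genes tested. The p-values measure the spread between vessel pools and between single brains. In an immunoprecipitate of this kind, fewer cells of a type and less of an mRNA per cell cannot be told apart.

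**Figure D1:**
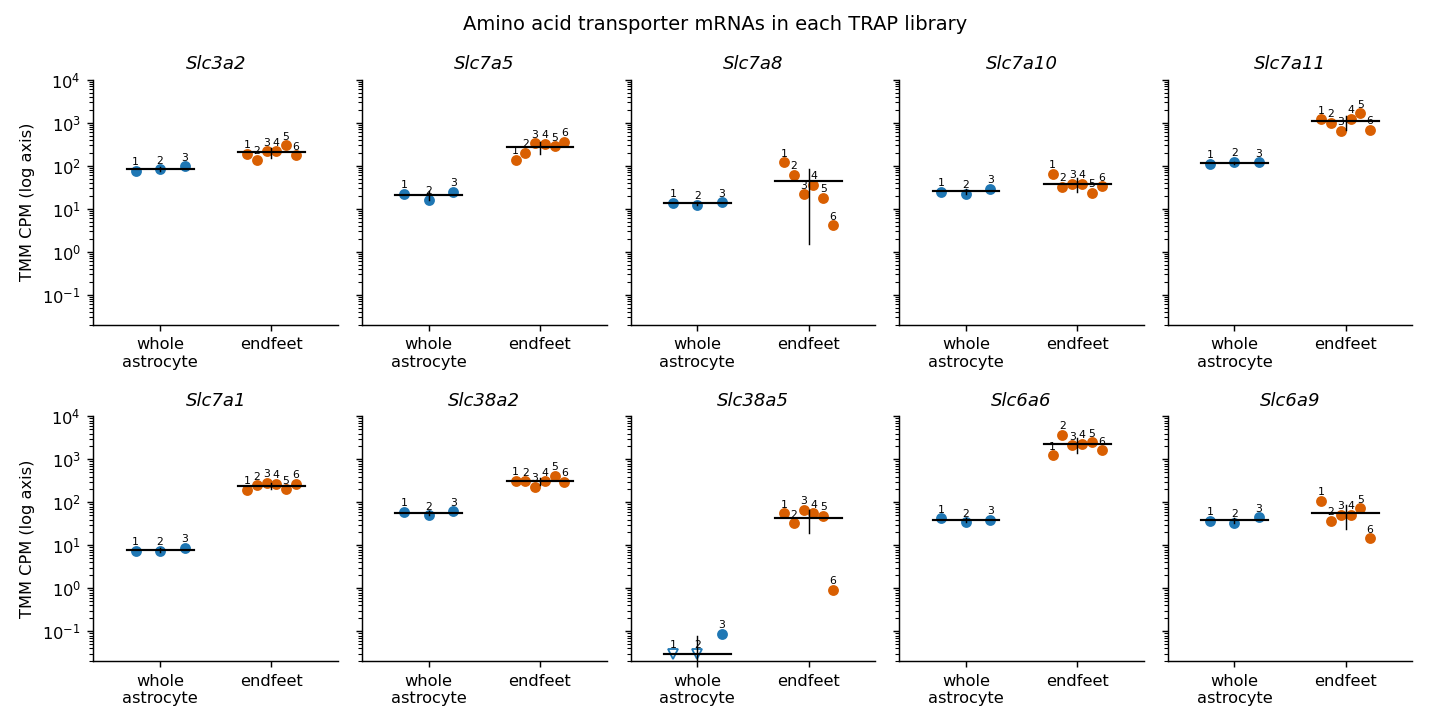
Level of each transporter mRNA in TMM CPM (log axis), with a numbered point for each of the 3 whole astrocyte and 6 endfeet TRAP libraries, a horizontal line at the group mean and a vertical line of 1 SD, clipped at the axis. Open triangles mark libraries with 0 counts, drawn at the bottom. The endfeet points lie above all whole astrocyte points for 7 of the genes, and they overlap for Slc7a8, Slc7a10 and Slc6a9. The Slc38a5 point of endfeet library 6 rests on 2 counts.

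Levels are CPM scaled by edgeR's trimmed mean of M-values (TMM CPM, a library's counts relative to its total), and fold changes and their errors are on the log2 scale of the fit. Whole astrocyte libraries held between 35984144 and 43521208 counts on genes and endfeet libraries between 2319495 and 13450588, so that 3 counts, taken as the smallest amount that can be shown, were 0.0689 to 0.0834 CPM in the former and 0.223 to 1.29 CPM in the latter. Endfeet library 6 was the shallowest. Endfeet TRAP carried vascular and epithelial mRNAs next to those of astrocytes. The summed level of 12 endothelial markers was between 3560 and 5530 TMM CPM in endfeet libraries and between 8.06 and 10.9 in whole astrocyte libraries, and 12 of the 12 were higher, with Ly6c1 at 0 in all 3 whole astrocyte libraries. The sums of the 10 mural markers, all higher, were 4130 to 8640 against 42.4 to 47.8, and those of the 8 fibroblast markers, all higher, 2750 to 6210 against 98.5 to 158. The 7 markers of choroid plexus and ependyma (6 higher) summed to between 6730 and 89400 TMM CPM in endfeet libraries and between 59.5 and 1490 in whole astrocyte libraries. Ttr made up most of this sum in every endfeet library (86760 of 89410 TMM CPM in library 1). Of the 12 astrocyte markers, 6 were lower and 1 was higher, and their sum was 11900 to 33200 against 48300 to 51600. Smaller sums were those of microglia and macrophages (206 to 346 against 18.6 to 22.4, 6 of 9 higher), neurons (992 to 1880 against 3620 to 4190, 3 of 8 lower), oligodendrocytes (206 to 545 against 578 to 592, 1 of 6 lower) and red blood cells (13.7 to 69.8 against 0.741 to 1.29, 3 higher of 3 tested). These sums moved with the group in all that follows, and their part in the transporter levels was not tested.

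**Figure D2:**
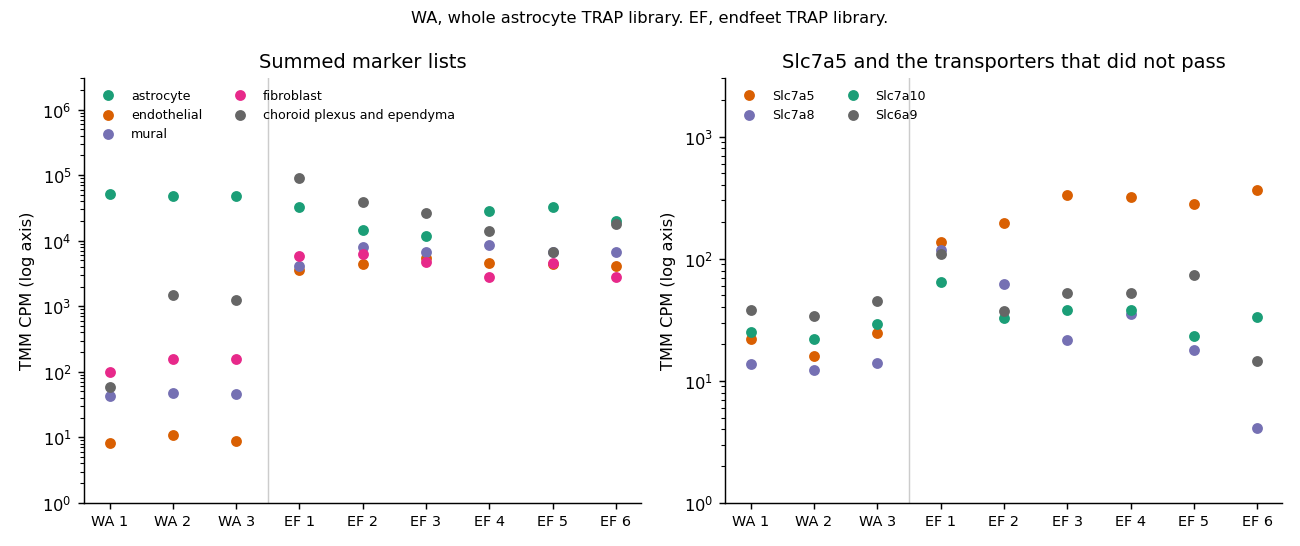
Left, summed TMM CPM (log axis) of 5 marker lists in each library, where WA is a whole astrocyte and EF an endfeet TRAP library. Right, TMM CPM (log axis) of Slc7a5 and of the 3 transporter mRNAs that did not pass the test. The endothelial sum is at least 3560 in every endfeet library and at most 10.9 in the whole astrocyte libraries. The choroid plexus and ependyma sum is highest in endfeet library 1, where Slc7a8, Slc7a10 and Slc6a9 have their highest levels. In endfeet library 2, with the next highest sum, Slc7a10 (32.5) and Slc6a9 (37.5) are below their endfeet medians (35.5 and 51.9).

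The heavy chain 4F2hc, which carries its light chains to the plasma membrane, had the most abundant of these mRNAs per kilobase in whole astrocyte TRAP. Slc3a2 (chr19:8707617-8713879, minus strand) was at 76.2, 81.7 and 97.0 TMM CPM in the whole astrocyte libraries. In the endfeet libraries its lowest, median and highest levels were 136, 203 and 297. The groups did not overlap, and the log2 fold change was 1.27 ± 0.29 (SE; adjusted p = 0.00472).

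The LAT1 mRNA, counted on a protein-coding transcript of 10 exons at chr8:121881150-121907694 (minus strand), rose more than its partner's. Slc7a5 was at 22, 15.9 and 24.8 TMM CPM in whole astrocyte TRAP and at 136, 301 and 363 (lowest, median and highest) in endfeet TRAP. The lowest endfeet library, number 1, was still above the highest whole astrocyte library. The means were 272 ± 88.0 (SD, n = 6) and 20.9 ± 4.57 (SD, n = 3), and the log2 fold change was 3.70 (SE 0.40; adjusted p = 1.52e-05).

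The difference between light and heavy chain was tested within libraries, where scaling cancels. The log2 ratio of Slc7a5 to Slc3a2 counts (0.5 added to each) was −1.79, −2.36 and −1.97 in whole astrocyte TRAP, and its lowest and highest values in endfeet TRAP were −0.486 and 1.06. The groups did not overlap. The mean ratio was higher by 2.41 in endfeet TRAP (0.372 ± 0.555, SD, n = 6, against −2.04 ± 0.293, n = 3; two-sided exact permutation test over 84 splits, p = 0.0119, the smallest they can give, and 0.0179 after adjustment over 3 ratios).

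xCT, which takes up cystine for glutathione synthesis in exchange for glutamate, had the light chain mRNA of the highest mean level per kilobase in endfeet TRAP. Slc7a11 (chr3:50364938-50443611, minus strand, the gene whose upstream bases are printed above) was at 109, 122 and 120 TMM CPM in whole astrocyte TRAP. In endfeet TRAP it was at 651, 1103 and 1658 (lowest, median and highest). All endfeet libraries were far above the whole astrocyte libraries (log2 fold change 3.19, SE 0.36, adjusted p = 2.34e-05).

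LAT2 carries neutral amino acids small and large, and its mRNA varied most between endfeet libraries among those that did not pass. Slc7a8 (chr14:54722209-54781930, minus strand) was at 13.7, 12.3 and 14.1 TMM CPM in whole astrocyte TRAP. Endfeet libraries 1 to 6 were at 119, 62.3, 21.8, 35.5, 17.9 and 4.11, the last on 9 counts. Thus 5 of 6 were above all whole astrocyte libraries, library 6 was below them, and the highest was 28.9 times the lowest. The log2 fold change was 1.70 (95% interval −0.04 to 3.44; adjusted p = 0.12). It was 1.08 (adjusted p = 0.218) without endfeet library 1 and 1.94 (adjusted p = 0.0293) without endfeet library 6, and against endfeet libraries 4, 5 and 6 alone, whose file numbers run on with those of the whole astrocyte libraries, it was 0.41 (adjusted p = 0.672). With limma voom and group weights it passed (1.15, adjusted p = 0.0213). The choroid plexus and ependyma sum in the same libraries was 89410, 39430, 26080, 13880, 6734 and 18260 TMM CPM, highest in libraries 1 and 2 as Slc7a8 was, and its part was not tested.

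The ratio of LAT1 to LAT2 mRNA followed this spread. The log2 ratio of Slc7a5 to Slc7a8 was 0.684, 0.362 and 0.813 in whole astrocyte TRAP and ranged from 0.194 (library 1) to 6.39 (library 6) in endfeet TRAP. The groups overlapped, and the difference of 2.60 did not pass (exact permutation test, adjusted p = 0.0833). It was 3.21 and passed (adjusted p = 0.0357) without endfeet library 1.

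Asc-1 moves glycine, alanine and D-serine. Slc7a10 (chr7:35186385-35201114, plus strand) was at 25, 22.2 and 29.0 TMM CPM in whole astrocyte TRAP, and at 23.2, 35.5 and 64.4 (lowest, median and highest) in endfeet TRAP. Library 1 was the highest and 5 of 6 endfeet libraries were above the whole astrocyte range. The log2 fold change of 0.59 (95% interval −0.33 to 1.51; adjusted p = 0.306) did not pass. Its exons share 237 bases with those of Lrp3 on the opposite strand, and since no source states that counting used strand, reads from these bases cannot be assigned to either gene.

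Per kilobase of transcript, so that genes can be compared, the make-up of the light chain pool differed between the groups. Slc7a5 made up 35.5 ± 13.9% (SD, n = 6) of the summed level per kilobase of the 4 light chain mRNAs in the endfeet libraries, against 16.9 ± 2.51% (SD, n = 3) in the whole astrocyte libraries. Slc7a10 made up 8.95 ± 3.26% and 37.1 ± 1.72%, Slc7a11 50.7 ± 11.1% and 36.6 ± 4.03%, and Slc7a8 4.78 ± 4.56% and 9.40 ± 0.385%. In endfeet library 1 the share of Slc7a5 was 16.7%, within the whole astrocyte range of 14% to 18.4%. The 4 light chains together were at 2.05 ± 0.374 times the level of Slc3a2 in the endfeet libraries (range 1.6 to 2.63) and at 0.750 ± 0.0577 times in whole astrocyte TRAP (0.716 to 0.817). Slc3a2 has a longer transcript (2813 against 1819 bases) with nearly the same counts, and with that length the figures were 3.17 ± 0.579 and 1.17 ± 0.0906. Their place around 1 thus rests on the length. The direction of the difference could not change here, since this length scales all libraries nearly alike. These shares were not tested.

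**Figure D3:**
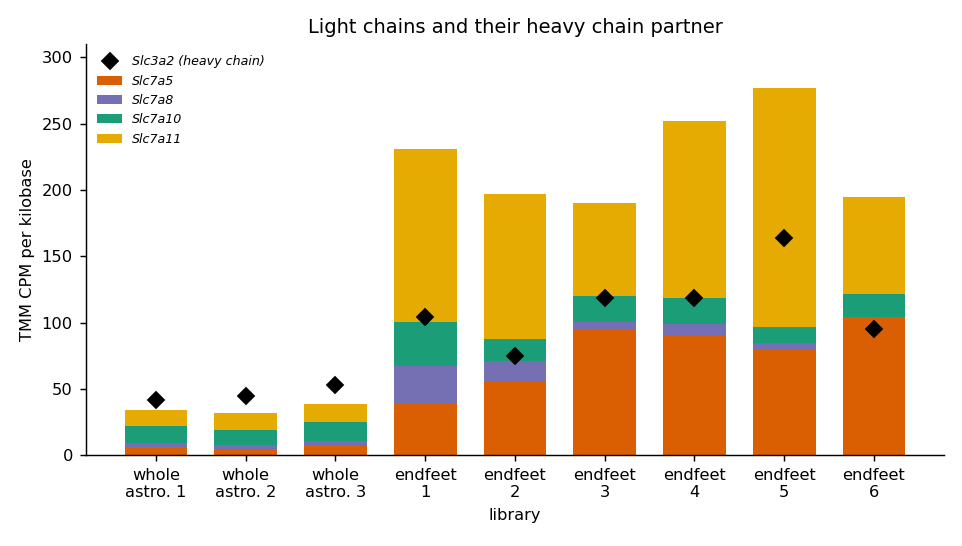
Stacked bars give the TMM CPM per kilobase of the 4 light chain mRNAs in each library, and black diamonds that of the heavy chain Slc3a2 (transcript of 1819 bases). In the 3 whole astrocyte libraries the diamond lies above the stack, and in the 6 endfeet libraries below its top, with the stack at 1.6 to 2.63 times the diamond.

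Carriers without a heavy chain included the largest differences. CAT1 imports arginine, lysine and ornithine. Slc7a1 (chr5:148327410-148399904, minus strand) was at 7.49, 7.46 and 8.87 TMM CPM in whole astrocyte TRAP and at 196, 260 and 287 (lowest, median and highest) in endfeet TRAP. The endfeet libraries lay closer together here than for any other of the 10 mRNAs (coefficient of variation 15.6%). The log2 fold change was 4.95 ± 0.32 (SE; adjusted p = 2.66e-07).

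SNAT2 takes up small neutral amino acids with sodium, and its mRNA is known to rise when cells lack amino acids. Slc38a2 (chr15:96687392-96699730, minus strand) was at 61.3, 50.6 and 61.7 TMM CPM in whole astrocyte TRAP and at 229, 309 and 417 (lowest, median and highest) in endfeet TRAP. The groups stood apart (log2 fold change 2.44, SE 0.28, adjusted p = 2.52e-05).

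SNAT5, which moves glutamine, serine and glycine, was nearly undetected in whole astrocyte TRAP. Slc38a5 (chrX:8271381-8280179, plus strand) had 0, 0 and 4 counts in the whole astrocyte libraries, together 0.0346 CPM (exact Poisson 95% interval 0.00943 to 0.0886, counting error only). Endfeet libraries 1 to 6 had 296, 285, 1031, 696, 659 and 2 counts, or 55.5, 32.8, 67.7, 56, 48.6 and 0.914 TMM CPM. Endfeet library 6 was thus below its own limit of 3 counts, and the others held 32.8 or more. The log2 fold change was 10.17 ± 1.5 (SE; adjusted p = 1.98e-04), a size that depends on the prior count added to genes with counts this low. Relative to Slc38a2, the log2 ratio of Slc38a5 was −12.1, −11.9 and −9.29 in whole astrocyte TRAP and between −8.05 (library 6) and −1.76 in endfeet TRAP, higher by 7.59 on average. This ratio is given without weight on its test, since it rests on the added 0.5 count in 2 of the whole astrocyte libraries and on 2 counts in endfeet library 6.

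TauT takes up taurine, an osmolyte, with sodium and chloride. Slc6a6 (chr6:91684053-91759066, plus strand) was at 43.0, 34.1 and 39.99 TMM CPM in whole astrocyte TRAP and at 1257, 2205 and 3732 (lowest, median and highest) in endfeet TRAP. Its log2 fold change was 5.85 ± 0.43 (SE; adjusted p = 6.96e-07). Per kilobase it stood at position 57 of 22092 genes in endfeet TRAP, but at position 7089 in whole astrocyte TRAP.

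GlyT1, the glial carrier that clears glycine, did not pass. Slc6a9 (chr4:117835051-117869305, plus strand) was at 37.7, 33.7 and 44.9 TMM CPM in whole astrocyte TRAP. In endfeet TRAP it was at 14.6, 51.9 and 109 (lowest, median and highest), with library 1 the highest and library 6 below all whole astrocyte libraries. The log2 fold change was 0.54 (95% interval −0.56 to 1.65; adjusted p = 0.44). Its exons share 1429 bases with Ccdc24 and 46 with B4galt2 on the opposite strand, so its level is uncertain in the same way as that of Slc7a10.

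**Figure D4:**
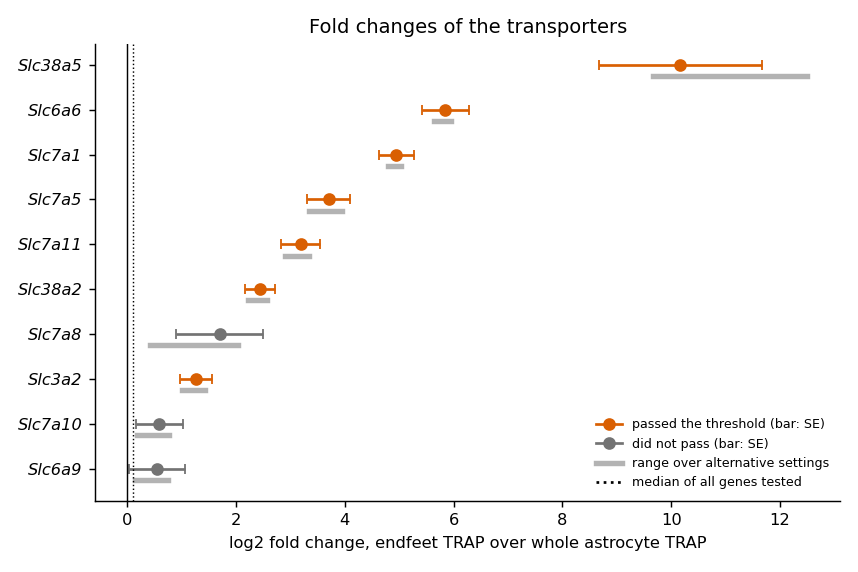
Log2 fold change of each transporter mRNA in endfeet over whole astrocyte TRAP, with its SE (edgeR), coloured where it passed an adjusted p of 0.05. Grey bars give the range over the alternative settings and the dotted line the median of all genes tested, 0.0965. Slc38a5 is the highest at 10.17, and Slc7a8 (1.70) lies above Slc3a2 (1.27) without passing.

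Set side by side per kilobase, the order of the 10 mRNAs differed between the groups. In whole astrocyte TRAP Slc3a2 led (46.7 ± 5.95 TMM CPM per kilobase, SD, n = 3), its range of 1 SD apart from the next. Slc7a10 (13 ± 1.74), Slc7a11 (12.7 ± 0.760), Slc38a2 (12.4 ± 1.36) and Slc6a9 (11.1 ± 1.63) came next, and their ranges of 1 SD overlapped from neighbour to neighbour. Below a gap between such ranges came Slc6a6 (6.31 ± 0.731) and Slc7a5 (5.94 ± 1.30), which overlapped. Slc7a8 (3.28 ± 0.227), Slc7a1 (1.11 ± 0.112) and Slc38a5 (0.0157 ± 0.0271) followed, each apart from the one before. In endfeet TRAP Slc6a6 led (364 ± 138, SD, n = 6). Its range of 1 SD was apart from that of Slc7a11 (116 ± 41.2), which came next with Slc3a2 (113 ± 29.8), Slc7a5 (77.4 ± 25) and Slc38a2 (67.4 ± 12.9), whose ranges of 1 SD overlapped from neighbour to neighbour. Below a further such gap, Slc7a1 (34.2 ± 5.35), Slc38a5 (23.3 ± 12.8), Slc7a10 (19.6 ± 7.11), Slc6a9 (16.2 ± 9.28) and Slc7a8 (10.6 ± 10.3) overlapped in the same way. Slc7a10 thus stood second in whole astrocyte TRAP and was among the last 3 in endfeet TRAP, although its own level did not pass a test of change. Among all genes Slc7a5 was at position 515 by its endfeet level and at 7310 by its whole astrocyte level. The place of Slc3a2 above Slc7a5 in endfeet TRAP rests on the Slc3a2 transcript of 1819 bases. With the longer one of 2813 bases its level per kilobase is lower.

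Further carriers of amino acids that passed the test were all higher in endfeet TRAP. Of 41 such genes of the Slc7a, Slc38a, Slc36a, Slc6a and related families, 32 were tested, 16 were higher in endfeet TRAP and 0 lower by edgeR (17 and 0 at unadjusted p under 0.05, and 20 and 0 by DESeq2 and by voom), with a median log2 fold change of 2.11. Leaving out 1 library at a time gave 14 to 18 higher and 0 lower. By family, 6 of 8 tested Slc38a genes were higher, 2 of 3 Slc36a genes, 4 of 9 Slc6a genes and 1 of 6 Slc7a genes, where 20.7% of all genes were higher, so that the Slc7a count is near the share of all genes and each family is small. Of the 239 tested genes among all remaining SLC genes (a list added after the values were seen), 88 were higher and 18 lower, with a median of 1.39. The largest differences with no overlap between groups were those of Slc38a11, Slc6a19, Slc1a5 and Slc6a20a. In the whole astrocyte libraries Slc38a11 had 6, 2 and 3 counts, Slc6a19 had 2, 5 and 1, and Slc1a5 had 21, 13 and 20. Slc16a10 (17, 21 and 14 counts) and Slc38a6 (43, 24 and 47 counts) were also low there and called higher. All these genes had enough counts to be tested only through endfeet TRAP. They could thus only be called higher, and they are counted in the 16. Slc38a6, Slc38a11 and Slc6a19 are also in the counts by family. Slc38a11, an orphan member of the SNAT family, averaged 30.6 ± 18.9 TMM CPM (SD, n = 6) over the endfeet libraries, against 0.0937 ± 0.0597 (n = 3) over the whole astrocyte libraries (log2 fold change 8.27, edgeR adjusted p = 1.27e-04). Slc6a20a, a carrier of proline and related imino acids, was at 292 ± 180 and 10.1 ± 3.41 (4.86, adjusted p = 3.1e-05). Reads that aligned also to its paralog Slc6a20b were removed, so its level may be too low. Slc1a5 (ASCT2), an exchanger of neutral amino acids including glutamine, was at 15.5 ± 9.0 and 0.45 ± 0.112 (5.08, adjusted p = 8.17e-04). Slc6a19, the neutral amino acid carrier of gut and kidney, was at 11 ± 11.5 with a range from 0.188 to 30.6 over the endfeet libraries, against 0.0694 ± 0.0568 (7.19, adjusted p = 0.00579), and its lowest endfeet value, in library 1, was 1 count, under the limit of 3.

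Carriers of this list with a high mean CPM that did not pass included Slc6a11 and Slc6a17. Slc6a11 (GAT3), a GABA carrier typical of astrocytes, was at 467 ± 210 TMM CPM over the endfeet libraries and 353 ± 34.7 over the whole astrocyte libraries (log2 fold change 0.40, SE 0.35). Slc6a17 (NTT4), a carrier of synaptic vesicles, was at 110.2 ± 46.7 and 61.6 ± 4.95 (0.84, SE 0.40; adjusted p = 0.122). It passed without endfeet library 6 (1.01, adjusted p = 0.019) and with limma voom and group weights (0.83, adjusted p = 0.00728). It was 0.12 (adjusted p = 0.798) against endfeet libraries 4, 5 and 6 alone and 0.25 (adjusted p = 0.618) with the series of file numbers as a covariate.

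Among enzymes that act on the substrates of these carriers, the genes that passed were mostly lower. Of 13 tested genes of glutathione and taurine synthesis 7 were lower in endfeet TRAP and 1 was higher (median log2 fold change −1.71), where edgeR called 13.9% of all genes lower and 20.7% higher. They included Cdo1, the cysteine dioxygenase that starts taurine synthesis (7.89 ± 4.30 TMM CPM in endfeet against 270 ± 10.6 in whole astrocyte libraries; log2 fold change −5.07), Cth, which makes cysteine from cystathionine (4.38 ± 6.19 against 76.9 ± 5.29; −4.25), and Cbs, which makes cystathionine (27.7 ± 18.7 against 190 ± 4.56; −2.78). Csad, the next enzyme of taurine synthesis, fell by 1.30 on the log2 scale, and Gclm and Gclc, the subunits of glutamate cysteine ligase, fell by 1.71 and by 0.92. The higher gene was Ggt5, which cleaves leukotriene C4 and extracellular glutathione (22.5 ± 12.3 against 0.455 ± 0.290, log2 fold change 5.61). With 6, 28 and 21 counts in the whole astrocyte libraries, Ggt5 had enough counts to be tested only through endfeet TRAP. It could thus only be called higher. Gsr, glutathione reductase, was lower with all libraries (−1.81, adjusted p = 0.0171) and did not pass when any single whole astrocyte library was left out (adjusted p = 0.0562 to 0.0717).

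Where edgeR called 13.9% of all genes lower and 20.7% higher, 4 of 6 tested genes of glycine and D-serine metabolism were lower and 0 higher. The counts were 5 and 0 at unadjusted p under 0.05, 4 and 0 by DESeq2 and 5 and 0 by voom (median −1.90). The 4 lower genes by edgeR were Gldc and Gcsh of the glycine cleavage system (11.7 ± 11.3 against 104.7 ± 0.713 TMM CPM, log2 fold change −3.15, and 23.7 ± 15.5 against 151 ± 10.2, −2.68), its shared subunit Dld (−1.25), and Srr, the serine racemase that makes D-serine (124 ± 39.3 against 279 ± 3.71, −1.16). The call of Dld was lost without whole astrocyte library 1 (adjusted p = 0.0712). Of 11 genes of branched-chain amino acid catabolism, the route by which leucine, valine and isoleucine are broken down, 3 were lower and 0 higher by edgeR (4 and 0 at unadjusted p under 0.05, 4 and 0 by DESeq2, 9 and 0 by voom, which called 31.1% of all genes lower), with a median of −0.820. Besides Dld, these were Dbt, a subunit of the branched-chain dehydrogenase (43.7 ± 34.9 against 224 ± 22.2, −2.35), and Ivd, of leucine breakdown (88.8 ± 31.3 against 264 ± 13.7, −1.57).

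In a list of genes known to respond to amino acid shortage, with Atf4 itself and without carriers, those that passed were mostly lower. Slc7a11 and Slc38a2, carriers named above as responsive to shortage, are not in this list and were higher (log2 fold change 3.19 and 2.44). Of the 21 tested genes of the list 6 were lower, 1 was higher and 14 did not pass (median log2 fold change −0.556). Over all genes tested, edgeR called 13.9% lower and 20.7% higher. Atf4 was itself lower (93.6 ± 42.3 TMM CPM in endfeet against 204 ± 4.66 in whole astrocyte libraries; log2 fold change −1.12, adjusted p = 0.0356). Most of the lower genes encode enzymes of serine and alanine metabolism, namely Psph (18.6 ± 8.75 against 224 ± 21.8, −3.60), Gpt2 (45.7 ± 27.9 against 431 ± 13.5, −3.23), Phgdh (−3.12) and Psat1 (−1.93), and the sixth was Cth. Phgdh has a pseudogene copy in the annotation and reads that aligned more than once were removed, so its low level (1.31 against 11.8 TMM CPM) is uncertain, and it did not pass without whole astrocyte library 2 (adjusted p = 0.0513) or with the library number series as a covariate (0.0535). The higher gene was Atf3, a stress-induced factor, whose groups overlapped (0 to 44.4 TMM CPM in endfeet TRAP). Atf3 had 26, 14 and 12 counts in the whole astrocyte libraries. It could be tested only through endfeet TRAP and thus only be called higher. Over the single left-out libraries the number of lower genes was 4 to 8 here, 4 to 8 for glutathione and taurine, 3 to 5 for glycine and D-serine, and 2 to 5 for branched-chain amino acids.

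**Figure D5:**
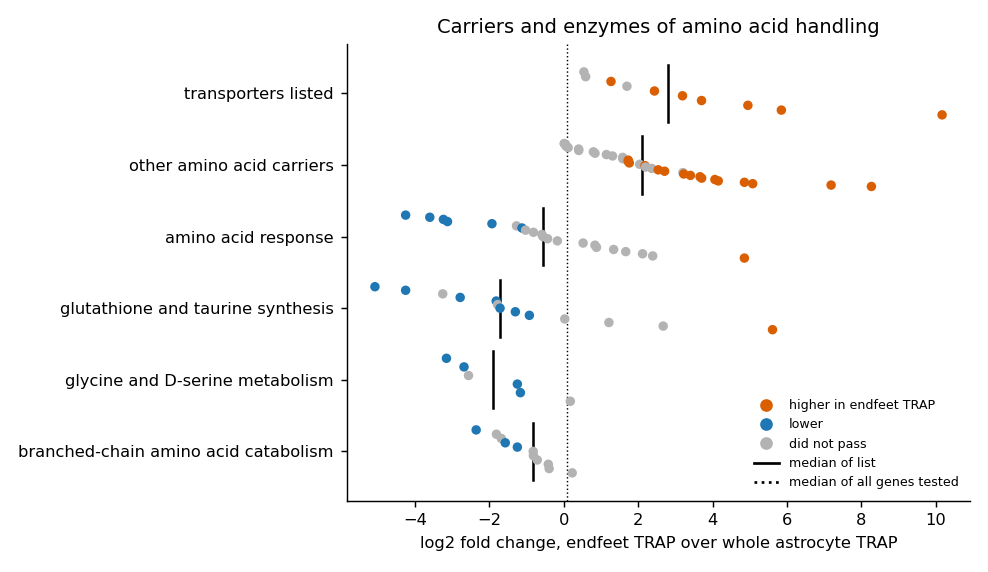
Log2 fold change in endfeet over whole astrocyte TRAP of each tested gene of the 10 transporters, of the other amino acid carriers and of 4 lists of enzymes and response genes, coloured by call, with the list's median as a short line and that of all genes as a dotted line. The medians are 2.82 and 2.11 for the carriers and between −0.556 and −1.90 for the other lists.

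Genes whose level followed that of Slc7a5 most closely over the 9 libraries were sought among the 14426 other genes tested, by the root mean square difference of centred log2 CPM. The nearest were Itgb1, the beta 1 integrin (0.25), P2ry1, a purine receptor (0.292), Dnajc10, a disulfide reductase of the endoplasmic reticulum (0.314) and Diaph1, a formin (0.322). Itgb1 was at 22.4 to 27.1 TMM CPM in whole astrocyte TRAP and 169 to 484 in endfeet TRAP. Among the other transporters Slc7a1 was the nearest (position 260), followed by Slc7a11 (325), Slc38a2 (377), Slc6a6 (1378) and Slc3a2 (1664), so that its own heavy chain was the fifth. Among those nearest to Slc7a10 were Pkmyt1, a kinase of cell cycle control (0.182), Srrm1, of splicing (0.213), and Cabin1, an inhibitor of calcineurin (0.214), none of which passed the test between groups. Both rankings are descriptions over libraries that share preparation and depth within a group. The distances include the difference between groups. The far place of Slc3a2 is thus not a result separate from its smaller log2 fold change (1.27 against 3.70 for Slc7a5).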

How the data were processed

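RNA from GFP immunoprecipitates of 3 whole astrocyte and 6 endfeet TRAP libraries was amplified and sequenced. The authors, working in Eoulsan, filtered the reads, placed them on mm10 with Bowtie, discarded those with several alignments and counted overlaps with Ensembl 75 transcripts by HTSeq-count 0.5.3. The deposited values are raw counts per transcript, and replicates were not pooled.

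Of 75466 transcripts, 73164 had an entry in GENCODE M21, also on mm10 (22092 genes), and 2302 others were left out. A read counts on every transcript it overlaps, so 1 transcript stood for each gene, the one of highest CPM in the sum of the libraries. For the group comparison edgeR 4.0.16 in R 4.3.3 was run over all 9 libraries (TMM, filterByExpr, glmQLFit, glmQLFTest, threshold 0.05), with SE taken as the absolute log2 fold change over the square root of F, and intervals from the same test. The common dispersion was 0.0142 in whole astrocyte and 0.725 in endfeet TRAP, which a single fit does not model. No pair of libraries agreed within sampling noise (chi-square per degree of freedom at least 15.7). Alternatives were DESeq2 1.42.0, limma 3.58.1 voom with group weights, other scaling, filters and transcripts, the series of the library file numbers (endfeet 1 to 3, or the rest; meaning not stated) as a covariate or the second series alone, a replicate block, and each library left out. Tables were handled in Python 3.11.15.

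The 10 transporters and the lists were chosen with earlier results of these data known. Beyond the transporters, the text names up to 4 genes per list and direction with the largest change among those past the threshold whose groups do not overlap, the 3 most abundant other carriers that did not pass, and the 4 genes nearest to Slc7a5 and to Slc7a10, of which some are not reported here. Csad, Gclm, Gclc, Atf4, Psat1, Atf3, Slc16a10 and Slc38a6 were named after their values were seen.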

Additional observations from a re-analysis of the deposited data

Results flagged for a closer look

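Among the endfeet libraries, library 6 was far from the others in Slc38a5 (0.914 TMM CPM, on 2 counts, where the other 5 libraries held between 32.8 and 67.7). The gap over range, taken on the log2 scale of CPM, was 0.822. Library 6 also stood apart in the log2 ratio of Slc38a5 to Slc38a2 (−8.05, where the other 5 lay between −3.24 and −1.76). There the gap over range was 0.765. Both values exceeded Dixon's critical value of 0.625 for 6 samples, which chance exceeds in about 5% of groups, and they were the 2 of 26 values above it (the lowest and highest sample of 13 quantities). They rest on the same 2 counts, and library 6 is also the shallowest library. Without it the log2 fold change of Slc38a5 was 10.44 (edgeR adjusted p = 9.04e-06).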

How the results depend on the processing

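The 7 transporter mRNAs kept their direction and their call under every alternative that tested them, and 0 of the 10 were lower under any. Slc38a5 and Slc7a8 could not be tested where 10 counts were required in every library, which left 6 higher. Slc7a8 joined the calls with voom, with the replicate block and without endfeet library 6, which made 8. Other carriers called higher numbered 11 to 20, and lower 0. Lower genes numbered 4 to 10 for the amino acid response, 5 to 9 for glutathione and taurine, 3 to 5 for glycine and D-serine and 3 to 9 for branched-chain catabolism over the settings that keep all libraries or drop a series.

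Counts over all genes moved more. Lower genes were 4485 with voom, against 2006. Leaving out 1 library gave 1874 to 3380 higher and 1171 to 2642 lower genes, with a change by over 1.5 times when whole astrocyte library 1 (1959 and 1171), 2 (1874 and 1197) or 3 (1943 and 1217) was left out. Of all calls 59.9% were higher, against 46.7% with voom (median log2 fold change of all genes −0.289) and 49.8% with endfeet libraries 4 to 6 alone, whose file numbers run on with the whole astrocyte ones (−0.158).

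The Slc7a5 to Slc3a2 ratio kept its direction: the difference was 2.252 to 2.585 with 1 library left out, 2.559 with endfeet libraries 4 to 6 alone and 2.268 in the paired fit with the replicate block (exact permutation tests, adjusted p = 0.1 and 0.375, where the smallest p possible is 0.1 and 0.25). That of Slc38a5 to Slc38a2 was 7.075 to 8.505, 6.574 and 8.611 under the same settings, with the same adjusted p. Both missed the threshold without any whole astrocyte library (adjusted p = 0.0536), with 28 splits left. That of Slc7a5 to Slc7a8 was 1.969 to 3.208 with 1 library left out, 3.891 with endfeet libraries 4 to 6 alone and 1.313 with the block.

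Replicate numbers did not pair the libraries: deviations of same-numbered libraries correlated by −0.0359, 0.0172 and 0.0382, and other pairs by −0.0549 to 0.0359. With the block 2501 genes were higher and 1958 lower, Slc7a8 (2.05, edgeR adjusted p = 0.04) and Slc6a17 (1.25, 0.0196) passed, Slc6a19 did not (4.06, 0.0912), and no other gene named by the rule changed its call. Depth limits Slc38a5 in whole astrocyte TRAP, and Slc38a5 and Slc7a8 in endfeet library 6.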
